A study of Mus musculus with 8 samples.

Results

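The kininogen genes Kng1 and Kng2, the bradykinin receptor genes Bdkrb1 and Bdkrb2, the prekallikrein gene Klkb1 and the angiotensin-converting enzyme gene Ace were followed in brown fat of mice lacking Prdm16 and of wild-type mice. These 6 genes were found by name among the 31829 gene names of the array, where they have 7 of 39429 probes. Kng1 and Kng2 were chosen by their measured values, because both were low in the knockout at both ages, so their log2 ratios are described here without a test. Of the 7 probes, 5 were bright enough to be used, and these stand for 4 genes among the 21741 tested.

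The arrays were Agilent 2-colour arrays, each with total RNA from the brown fat of 1 knockout and 1 wild-type mouse sample of the same age on the same array. Mice were 6 weeks old on 4 arrays and 11 months old on the other 4, and the labels call the samples of a group biological replicates. At 6 weeks the knockout carried the dye Cy3 on arrays 1 and 2 and Cy5 on arrays 3 and 4; at 11 months it carried Cy5 on arrays 1 and 2 and Cy3 on arrays 3 and 4. The genotype is given only as Prdm16 knockout or wild type: how the allele was made, any Cre driver, the strain and the sex are not given by the labels. Each age was a batch of its own, so that age and batch cannot be told apart. Unless another scale is named, values are log2 ratios with the knockout on top, and 4 arrays per age limit how precise they can be. The p-values measure the spread between these samples.

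Kininogens are secreted proteins made mainly by the liver. Plasma kallikrein, the active form of the Klkb1 product, and tissue kallikreins cut them and set free the short peptides bradykinin and kallidin. These kinins act through the B2 receptor (Bdkrb2), which most tissues carry, and, once a carboxypeptidase has removed the last residue, through the B1 receptor (Bdkrb1), which is known to be induced by inflammation. Angiotensin-converting enzyme and other peptidases end the signal, and the kininogen protein itself also carries cystatin domains, which inhibit cysteine proteases. Mice have a second kininogen gene next to the first, and both are spliced into a long, high-molecular-weight and a short, low-molecular-weight form.

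The kininogen probes are shown because their sequences decide which RNA the results refer to. They are the 60-base oligonucleotides on the array, written 5′ to 3′, with positions on mouse build mm9 as the array's annotation gives them.
Kng2 probe, chr16:22997333-22999887, minus strand: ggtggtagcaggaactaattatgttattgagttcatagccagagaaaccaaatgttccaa
Kng1 probe for transcript variant 2, chr16:23081700-23081759, plus strand: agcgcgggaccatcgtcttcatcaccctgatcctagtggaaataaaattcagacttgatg
Kng1 probe for transcript variant 1, chr16:23079732-23079791, plus strand: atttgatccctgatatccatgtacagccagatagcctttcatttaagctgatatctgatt
The 60 bases of the Kng2 probe are spread over 2555 bases of the genome, so that it crosses a splice junction. Each of these probes has 1 of its 3 forward reading frames free of stop codons. Among themselves the probes share no run longer than 7 bases on the same strand. However, the array's annotation lists transcripts of both genes for all of them: 1 of Kng1 and 3 of Kng2 for the Kng2 probe, 1 and 1 for the variant 2 probe, and 2 and 1 for the variant 1 probe, when the accessions are named through the RefSeq table of GRCm38.p6. The probes may therefore share signal, and below, Kng1 and Kng2 are the array's names for them.

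Several facts of the arrays touch these results. The Prdm16 probe, read first as a check of the labels, was at -0.58 at 6 weeks (SE 0.17, adjusted p = 0.0635) and at -0.58 at 11 months (adjusted p = 0.0296). The second value passed the limma test over all genes, with an adjusted p of 0.117, 0.13 and 0.0814 without 11-month arrays 1, 3 and 4, and 0.296 under median centring. The 6-week value passed under some settings, with an adjusted p of 0.0305 without 11-month array 2, 0.0348 with a dye term per age, 0.024 with each age fitted alone and 0.042 with uneven backgrounds kept as scanned. Whether that probe reads a deleted or an intact stretch of Prdm16 is not known here. All 12 brown adipocyte genes, Ucp1 included, and all 9 general adipocyte genes were well above background in all 16 channel measurements. The third 11-month array stood apart: the median log2 ratio of 8 fibroblast genes was 2.46 there and 0.40 to 0.61 on the other 11-month arrays, and that of 10 macrophage and myeloid genes was 1.54 against 0.07 to 0.58. In the fit over all genes, 14.1% of genes passed at 6 weeks (8.1% higher and 6.04% lower), 40.5% at 11 months (21% higher and 19.6% lower), and 20.9% in the difference between ages (9.76% higher and 11.2% lower at 11 months than at 6 weeks).

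The kininogen RNAs were low in the knockout on every array. For Kng2 the ratios on 6-week arrays 1 to 4 were -1.51, -1.29, -2.27 and -2.69, a mean of -1.94 ± 0.65 (SD, n = 4), which is 3.83-fold lower. On 11-month arrays 1 to 4 they were -4.50, -4.89, -5.76 and -3.30, a mean of -4.61 ± 1.02 (SD, n = 4), which is 24.4-fold lower. No 11-month ratio overlapped the 6-week ratios, and array 3 held the lowest value. These ratios chose the gene, so the gap is described without a test. Over all genes, 20.9% passed the limma test of the difference between ages, which is another measure than overlap. The share of all genes without overlap was not counted. The difference between ages cannot be told apart from the batches. At 6 weeks both arrays with the knockout in Cy5 (3 and 4) had lower ratios than both arrays with it in Cy3, for Kng2 and for both Kng1 probes; the fit holds 1 dye term shared by both ages. Without 11-month array 3 the 11-month mean of Kng2 was -4.03. These are bulk tissue values, in which fewer cells that make an RNA and less of it per cell cannot be told apart.

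The scanner signals behind these ratios show how far the Kng2 spot dropped. In the wild-type channels of 6-week arrays 1 to 4 its mean signal was 4424, 5396, 5866 and 7446 scanner units, and in the knockout channels it was 1583, 1872, 2281 and 1938. At 11 months the wild-type signals were 2815, 2848, 5597 and 4995, and the knockout signals were 333, 262, 62.5 and 372. Local background was 20.5 to 40 units around this spot at 6 weeks and 23 to 59 at 11 months. The knockout signal of 62.5 on 11-month array 3 was the only one of its 16 channel measurements that the scanner software did not mark as well above background.

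Kng1, read by its brighter probe for transcript variant 2, followed the same course. Its ratios were -1.48, -1.34, -2.05 and -2.34 on 6-week arrays 1 to 4, a mean of -1.80 ± 0.47 (SD, n = 4) or 3.49-fold lower. They were -3.73, -4.03, -5.93 and -3.34 on 11-month arrays 1 to 4, a mean of -4.26 ± 1.15 (SD, n = 4) or 19.1-fold lower. Again the 2 ages did not overlap, in a gene chosen by these ratios, and 11-month array 3 was lowest. Without that array the mean was -3.59. All 16 channel measurements of this probe were well above background, with wild-type signals of 11971 to 21132 units at 11 months. The ratios of Kng1 minus those of Kng2 on the same array were -0.05 to 0.34 at 6 weeks and -0.18 to 0.86 at 11 months, and the ratios of the 2 probes had a correlation of 0.97 over the 8 arrays. Both probes list transcripts of both genes and were read on the same arrays, so this likeness does not show that both genes fell.

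**Figure D1:**
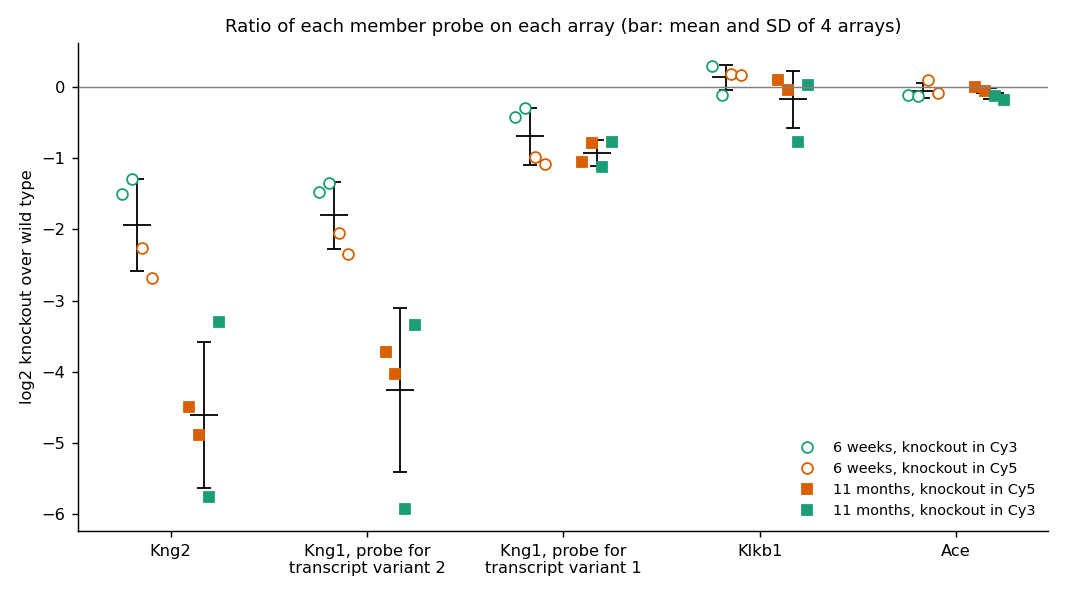
Log2 knockout over wild type (y axis) of the 5 member probes that passed the filter (x axis), 1 point per array, open circles at 6 weeks and filled squares at 11 months, coloured by the dye of the knockout, with the mean and SD of 4 arrays as bars. The brighter kininogen probes lie between -1.29 and -2.69 at 6 weeks and between -3.30 and -5.93 at 11 months, whereas Ace stays between -0.18 and 0.10.

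The Kng1 probe for transcript variant 1 was dim. Its wild-type signals at 6 weeks were 122, 122, 143 and 170 units and its knockout signals 69.7, 72.1, 100.3 and 102, all marked as well above background. The ratios were -0.41, -0.29, -0.98 and -1.08. At 11 months the wild-type signals were 82.5, 73.0, 175 and 185, and the knockout signals of 70.7, 69.0, 48.4 and 59.3 were on no array well above background. For 11 months a rough bound alone can be given, and only for the processing used throughout. With it, the wild-type level was 1.76-fold above the bound set for the knockout level. That bound takes for each array the higher of the probe's own level and the lowest level well above background over all probes. It is not the detection limit of this spot, so the fall may also be smaller. The measured mean of -0.93 at 11 months is no estimate of size. This mean moved to -0.69 with uneven backgrounds kept as scanned, a smaller fall than 1.76-fold. It moved to -1.42 with a smaller normexp offset and to -3.80 with the scanner software's own ratio.

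Among all 21741 genes ordered by their fitted ratio, Kng2 had rank 17 and Kng1 rank 22 from the lowest at 6 weeks. At 11 months they had ranks 1 and 2, followed by Ucp1, the uncoupling protein of brown fat, at rank 3 with -4.15. At 6 weeks, in contrast, Ucp1 had a ratio of 0.13 (adjusted p = 0.887 in limma). These ranks describe how the kininogens were chosen and are not evidence for them.

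From 6 weeks to 11 months the mean ratio of Kng2 moved by -2.67 and that of Kng1 by -2.46. These differences are made from the ratios by which the kininogens were chosen and are described without a test. Without 11-month array 3, which held the lowest ratio of both, they were -2.09 and -1.78. With any other single array left out they ran from -3.07 to -2.54 for Kng2 and from -2.82 to -2.27 for Kng1. Averaging both Kng1 probes, of which the dim one has only a rough bound at 11 months, gave -1.35. The difference between ages cannot be told apart from the difference between the batches.

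Separate channel levels describe each genotype at each age, with age and batch not told apart. On the normalized log2 intensity scale, Kng2 was at 12.44 ± 0.32 in wild type and 10.50 ± 0.35 in knockout at 6 weeks, and at 12.44 ± 0.28 in wild type and 7.83 ± 0.89 in knockout at 11 months (SD, n = 4 arrays each). Kng1 was at 14.00 ± 0.22 and 12.20 ± 0.32 at 6 weeks, and at 14.52 ± 0.40 and 10.26 ± 1.22 at 11 months, in the same order. For both genes the order of the levels was therefore wild type at either age, then the 6-week knockout, then the 11-month knockout. The wild-type levels of the 2 ages were neighbours in that order and overlapped, and the knockout levels of the 2 ages did not overlap. How often the levels of all genes do not overlap was not counted, and these genes were chosen by their ratios. Levels were set across batches by between-array normalization and were not tested. Without that step the wild-type levels of Kng2 were 12.67 at 6 weeks and 12.23 at 11 months, so that their equality depends on the scaling, and its knockout levels were 10.73 and 7.62.

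**Figure D2:**
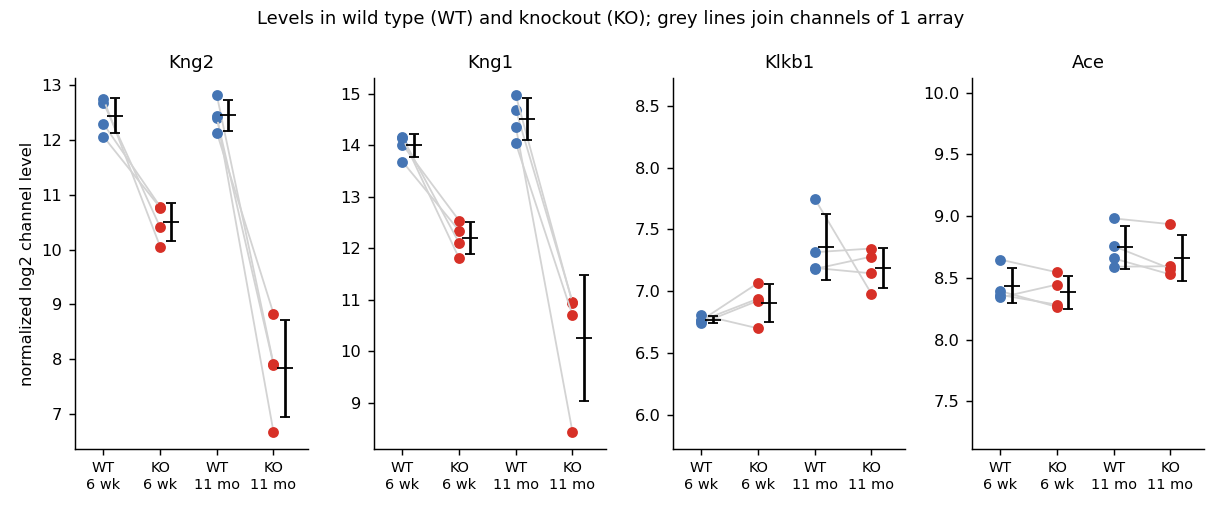
Normalized log2 channel level (y axis, each panel on its own scale) of Kng2, Kng1, Klkb1 and Ace in wild type and knockout at 6 weeks and 11 months (x axis), 1 point per array, with grey lines joining the channels of an array and black bars for the mean and SD. With this scaling the wild-type means of Kng2 are both 12.44, and its knockout means are 10.50 and 7.83.

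The promoter of Kng2 is printed so that its letters can be compared with those of other genes. The RefSeq promoter table of build GRCm38.p6 matched 4 of the 6 genes by symbol (Kng2, Klkb1, Ace and Bdkrb2). Shown are the 250 bases before the start of Kng2, chr16:23029102-23029351 on the minus strand, 5′ to 3′, with capitals marking matches to AGGTCA, the core motif of many nuclear receptors, and to TTGCNNAA, a motif of the C/EBP factors, searched on both strands.
Kng2 promoter: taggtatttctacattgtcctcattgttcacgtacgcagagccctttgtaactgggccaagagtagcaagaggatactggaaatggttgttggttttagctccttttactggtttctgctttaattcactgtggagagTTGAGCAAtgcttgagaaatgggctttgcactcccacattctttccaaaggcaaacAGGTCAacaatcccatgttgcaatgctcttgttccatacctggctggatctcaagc
The window held 1 match to each, TTGAGCAA (TTGCNNAA on the other strand) beginning at -112 and AGGTCA beginning at -56 from the start, and the 2 motifs did not overlap. Of all 32851 promoter windows of the same length, 14% held AGGTCA and 9.6% held TTGCNNAA on either strand. Klkb1, whose ratio did not pass the test, had 1 match to TTGCNNAA at -177, and 1 of the 2 Ace windows had AGGTCA at -50. Such matches describe letters and name no factor that binds there.

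Both kinin receptor genes lay at background. The spot of Bdkrb1 (chr12:106843460-106843519 on mm9) gave 31.7 to 56.3 scanner units over all 8 channel measurements at 6 weeks, where its local background was 21 to 32.5, and 37.0 to 85.3 units at 11 months over a background of 23 to 65. The spot of Bdkrb2 (chr12:106831222-106831281) gave 28.8 to 47.4 units over 18 to 36 at 6 weeks, and 33.5 to 69.8 over 20 to 57.5 at 11 months. Neither was marked as well above background in any of its 16 channel measurements, in wild type or knockout. No fold change is given for them, and RNA of either receptor below the array's limit of detection would not be seen.

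**Figure D3:**
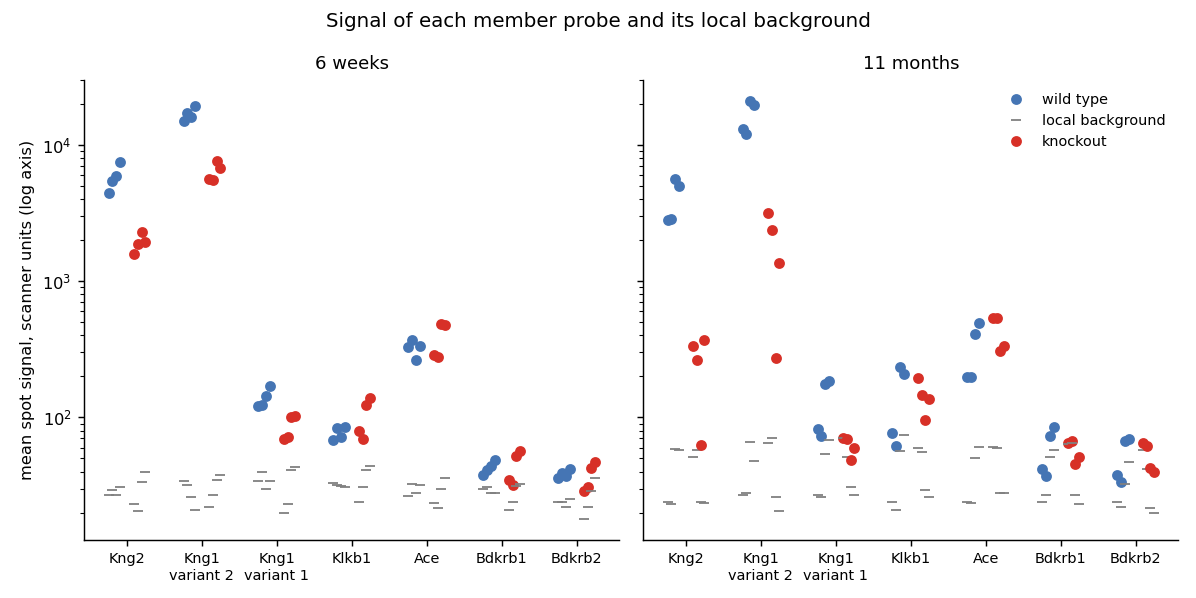
Mean spot signal in scanner units (y axis, log scale) of all 7 member probes (x axis) in wild-type and knockout channels, 1 point per array and channel, with grey dashes for the local background of each spot; 6 weeks on the left, 11 months on the right. Bdkrb1 and Bdkrb2 lie close to their background in both genotypes, whereas the wild-type signals of Kng2 run from 2815 to 7446.

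Prekallikrein RNA was measurable but low. Klkb1 (chr8:46355052-46355111, minus strand) had ratios of 0.30, -0.11, 0.18 and 0.18 on 6-week arrays 1 to 4, and 0.10, -0.04, -0.77 and 0.03 on 11-month arrays 1 to 4. Its fitted ratio was 0.14 at 6 weeks (95% interval -0.17 to 0.44, limma adjusted p = 0.521) and -0.17 at 11 months (95% interval -0.48 to 0.13, adjusted p = 0.338). The 11-month value rested on array 3, without which it was 0.02 (adjusted p = 0.889). Channel levels of Klkb1 were 6.77 ± 0.03 in wild type and 6.91 ± 0.15 in knockout at 6 weeks, and 7.36 ± 0.27 and 7.19 ± 0.16 at 11 months. The genotypes overlapped at both ages. At 11 months the spot gave only 61.8 to 235 scanner units over a local background of 21 to 74.5. A fall of the size seen in the kininogens could therefore not have been measured by this probe.

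Ace, which removes the last dipeptide of bradykinin and also makes angiotensin II, had small ratios. They were -0.10, -0.13, 0.10 and -0.08 on 6-week arrays 1 to 4 and 0.00, -0.05, -0.13 and -0.18 on 11-month arrays 1 to 4 (chr11:105850398-105850457 on mm9). The fitted ratio was -0.05 at 6 weeks (95% interval -0.18 to 0.07, limma adjusted p = 0.556) and -0.09 at 11 months (95% interval -0.21 to 0.03, adjusted p = 0.22). The direction at 11 months depended on the scaling: with the arrays centred on their median in place of loess, Ace stood at 0.19 (adjusted p = 0.0443). That centring also moved the median of all tested genes from 0.01 to 0.18 at 11 months, and relative to this shift Ace stayed near 0. Levels of Ace were 8.44 ± 0.14 in wild type and 8.38 ± 0.13 in knockout at 6 weeks, and 8.75 ± 0.17 and 8.66 ± 0.19 at 11 months, overlapping at both ages.

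Of the wider pathway, 41 genes for kinin release, receptors, breakdown and receptor signalling, Klkb1, Ace and the receptors included and the kininogens left out, were on the array, and 36 were tested. At 6 weeks 5 were higher and 4 lower, or 25% against 14.1% of all genes. At 11 months 13 were higher and 7 lower, or 55.6% against 40.5%, with a median of 0.13 where that of all genes was 0.01. In the difference between ages 6 were higher and 3 lower, or 25% against 20.9%. The 6-week count was 3, 4, 3 and 4 without 6-week arrays 1, 2, 3 and 4, and the count of differences was 3 without 6-week array 2, 5 without 6-week array 4 and 4 without 11-month array 2. Median centring gave 7 higher and 3 lower at 6 weeks, 21 and 5 at 11 months, and 12 and 3 in the difference. Over all genes it gave 3088 higher and 795 lower at 6 weeks, 8960 and 2736 at 11 months, and 3451 and 1295 in the difference, against 1760 and 1313, 4556 and 4251, and 2122 and 2430 with loess.

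Of 6 tested genes of the contact system and of kinin release, none passed at 6 weeks, where 14.1% of all genes did. At 11 months 1 rose and 1 fell, or 33.3%, near the 40.5% of all genes. Prcp, a carboxypeptidase that can activate prekallikrein on endothelial cells, rose at 11 months by 0.62 (SE 0.12, limma adjusted p = 0.0051, higher on 4 of 4 arrays). C1qbp, a mitochondrial protein that at the cell surface can bind high-molecular-weight kininogen, fell by 0.82 (adjusted p = 0.000608, lower on 4 of 4). The C1 inhibitor gene Serping1 was at 0.57 at 11 months (adjusted p = 0.052), with 1.44 on array 3 and -0.10 to 0.67 on the others. It stayed uncalled under 13 of 22 alternatives. Under the others it passed, among them median centring (0.97, adjusted p = 0.00377) and a dye term per age (adjusted p = 0.0228). F11 and the tissue kallikrein gene Klk1 had fitted ratios between -0.07 and 0.02 at both ages. They were well above background in only 4 and 6 of 16 channel measurements, so these ratios near 0 say little about their RNA. F12, the gene of the factor that starts the contact system, was at background in all 16 measurements.

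Among the genes for peptidases that break kinins down, Cpn2 had the lowest ratio. Cpn2 encodes the non-catalytic subunit of carboxypeptidase N, a plasma enzyme that trims the last residue from bradykinin. Its ratios were -1.47, -1.03, -1.11 and -0.95 on 6-week arrays 1 to 4 and -2.91, -3.40, -4.32 and -2.14 on 11-month arrays 1 to 4. Cpn2 fell by 1.14 at 6 weeks (SE 0.30, limma adjusted p = 0.0424) and fell by 3.19 at 11 months (adjusted p = 0.000201), and the difference of -2.05 passed (adjusted p = 0.0154; 0.0506 without 6-week array 2). The 6-week call was lost without any single 6-week array and without 11-month arrays 1 and 2, with adjusted p up to 0.177, and its adjusted p was 0.0504 to 0.146 under 5 other settings, the scanner software's ratio giving the highest. Cpn1, the gene of the catalytic subunit, was at background in all 16 measurements.

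Of the 15 tested peptidase genes, 2 rose and 2 fell at 6 weeks, and 4 rose and 3 fell at 11 months, with medians of 0.02 and 0.13. That is 26.7% against 14.1% of all genes at 6 weeks, and 46.7%, near the 40.5% of all genes, at 11 months. Cpb2, the gene of a plasma carboxypeptidase, fell by 0.33 at 6 weeks (limma adjusted p = 0.0144) and by 0.41 at 11 months (adjusted p = 0.00142). Xpnpep2, a membrane-bound aminopeptidase P, rose by 0.52 and 0.53 (adjusted p = 0.0226 and 0.007). Its cytosolic relative Xpnpep1 rose by 0.40 at 6 weeks (adjusted p = 0.0169) and was at 0.04 at 11 months, where median centring put it at 0.44 (adjusted p = 0.0233). Carboxypeptidase D (Cpd) rose by 0.83 at 11 months (adjusted p = 0.000472). The endopeptidase genes Thop1 and Nln rose by 0.25 and 0.19 (adjusted p = 0.0316 and 0.0363), and neprilysin (Mme) fell by 0.52 (adjusted p = 0.012).

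Several of these calls depended on single arrays. At 6 weeks Cpb2 was not called without 6-week arrays 1, 3 or 4 (adjusted p up to 0.0737), Xpnpep1 without arrays 1, 2 or 3 (up to 0.086) and Xpnpep2 without any of the 4 (up to 0.113). At 11 months Mme was not called without array 2 (0.0525) or under median centring (-0.16, adjusted p = 0.299), Thop1 without arrays 1, 2 or 3 (up to 0.135), and Nln without 11-month arrays 1, 2 or 3 or 6-week arrays 2, 3 or 4 (up to 0.144). The 11-month calls of Cpn2, Cpb2, Cpd and Xpnpep2 held with each array left out in turn.

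Of 15 tested genes that carry the signal of kinin receptors inside the cell, 8 rose and 3 fell at 11 months, with a median of 0.43, where 21% of all genes were higher and 19.6% lower. At 6 weeks 3 rose and 2 fell, or 33.3% against 14.1% of all genes, with a median of 0.03. These products serve many receptors, and the kinin receptors were themselves at background. Plcb1, a phospholipase C that acts downstream of Gq proteins, rose by 1.04 at 6 weeks and by 1.31 at 11 months (limma adjusted p = 0.00702 and 0.000516). Gnaq, the gene of a Gq subunit, rose by 0.46 and 0.43 (adjusted p = 0.00736 and 0.00214). Nos3, the endothelial nitric oxide synthase, rose by 0.49 and 1.29 (adjusted p = 0.0356 and 0.000205). All 4 ratios of Nos3 were above 0 at each age, from 0.40 to 0.65 at 6 weeks and from 0.78 to 1.84 at 11 months.

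Among the inhibitory G-protein genes, Gnai1 rose by 1.65, Gnai2 by 0.88 and Gnai3 by 0.49 at 11 months (limma adjusted p = 0.000529, 0.000132 and 0.00314), and none of them passed at 6 weeks. In the test of the difference between ages Gnai2 passed with every single array left out, Gnai1 passed but lost its call without any of 5 arrays, and Gnai3 did not pass (adjusted p = 0.0766). In the same 11-month samples the inositol trisphosphate receptor genes Itpr1 and Itpr2 fell by 1.31 and 1.46 (adjusted p = 0.000102 and 0.00175), whereas Itpr3 was at 0.21 and did not pass (0.56 and adjusted p = 0.00139 under median centring). Itpr2 was at -0.80 at 6 weeks, close to the threshold (adjusted p = 0.0511). It stayed uncalled under 10 of 22 alternatives, among them the fits without any 1 of the 6-week arrays (up to 0.223). Under the others it passed, among them each age fitted alone (0.0234), a dye term per age (0.0421) and median centring (0.0462). Plcb3 fell by 0.58 at 6 weeks (adjusted p = 0.00169) and by 0.27 at 11 months (adjusted p = 0.00703), where median centring turned it to 0.13. Ptgs1, a cyclooxygenase gene, and Arrb2, a beta-arrestin gene, rose by 0.45 and 0.58 at 11 months (adjusted p = 0.0159 and 0.0146), Ptgs1 with an adjusted p of 0.0738 without array 3. Gna11 fell by 0.24 at 6 weeks (adjusted p = 0.0469), a call that ended without any 6-week array and without 11-month arrays 1, 2 or 3 (adjusted p up to 0.201), and under median centring it was at -0.02 (adjusted p = 0.88); the 6-week call of Nos3 ended without any 6-week array or 11-month array 1 (up to 0.161).

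**Figure D4:**
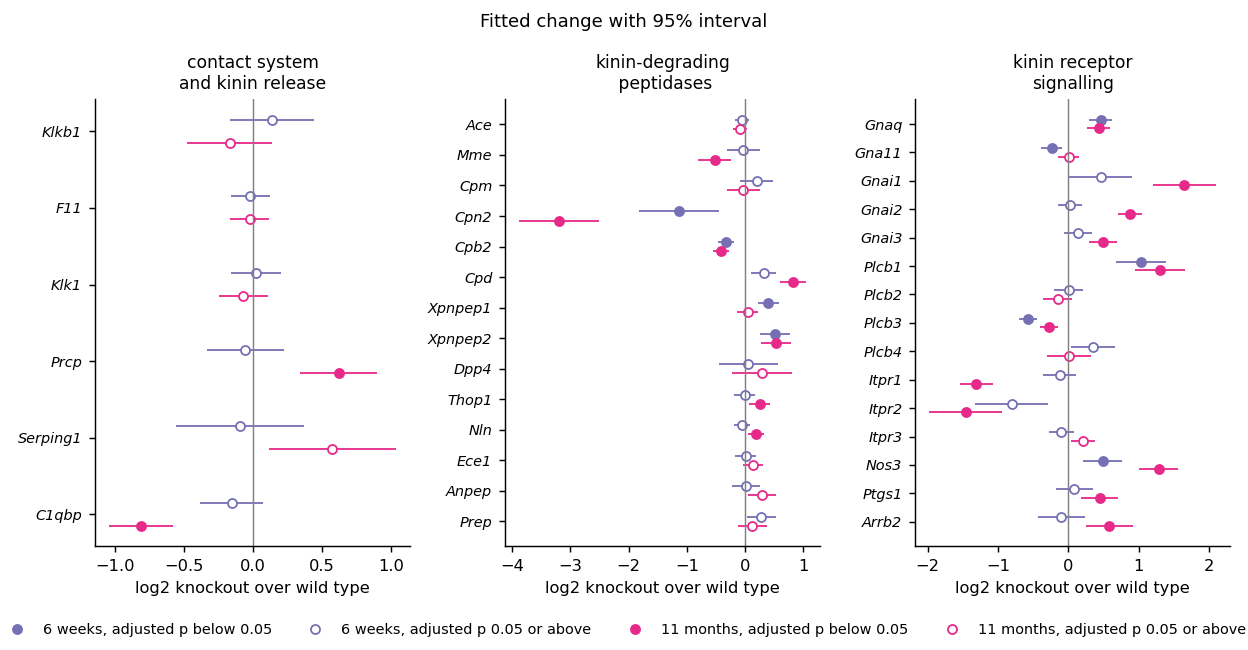
Fitted log2 knockout over wild type (x axis) with 95% interval for tested genes of kinin release, kinin breakdown and receptor signalling (y axis), upper points at 6 weeks and lower points at 11 months, filled where the limma adjusted p was below 0.05. Cpn2 lies at -1.14 and -3.19, and Gnai1 at 1.65 at 11 months.

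In the angiotensin system, which shares Ace with the kinins, 2 of 9 tested genes rose at each age and none fell, which is 22.2% against 14.1% of all genes at 6 weeks and 40.5% at 11 months. Agt, the gene of angiotensinogen, had ratios of 1.75, 1.88, 2.46 and 2.27 on 6-week arrays 1 to 4 and 2.28, 2.43, 1.67 and 1.05 on 11-month arrays 1 to 4. It rose by 2.09 at 6 weeks and 1.86 at 11 months (limma adjusted p = 0.00028 and 4.04e-05). Enpep, aminopeptidase A, which trims angiotensin II, rose by 2.41 and 3.43 (adjusted p = 0.00258 and 0.000102), with 4 of 4 arrays above 0 at each age. The other 7, among them Ren1 and Agtr1a, passed at neither age.

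Kininogens belong to the cystatin superfamily, and its other tested genes had ratios between -0.48 and 0.23 at both ages. Of 5 tested besides the kininogens, none passed at 6 weeks and 2 fell at 11 months, with medians of -0.10 and -0.22. The 11-month share of 40% is that of all genes (40.5%). Cst3 (cystatin C) fell by 0.48 and Cstb (cystatin B) by 0.22 at 11 months (limma adjusted p = 0.0218 and 0.0319). Each of these calls ended without 11-month array 1, 2 or 3 (adjusted p up to 0.102 and 0.13), and under median centring Cst3 was at -0.11 (adjusted p = 0.204) and Cstb turned to 0.18. The plasma protein genes Fetub and Hrg did not pass, at -0.10 and -0.07 at 6 weeks and -0.41 and -0.09 at 11 months. Under some settings both passed the limma test at 11 months. For Fetub these included the scanner software's ratio (-0.69, adjusted p = 0.0289) and the fit without 6-week array 1 (adjusted p = 0.0137). For Hrg they were the scanner software's ratio (-0.40, adjusted p = 0.011), the deposited values (-0.22, adjusted p = 0.0372) and no background correction (-0.21, adjusted p = 0.0403).

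The genes beside the kininogens on chromosome 16 did not share their size of change. In the order of the RefSeq table, Kng2 and Kng1 lie between Hrg and Eif4a2, with Fetub and Ahsg on one side and Rfc4, Adipoq and St6gal1 on the other. Of 9 neighbours tested, 1 rose and 2 fell at 6 weeks, or 33.3% against 14.1% of all genes, and 2 rose and 2 fell at 11 months, or 44.4%, near the 40.5% of all genes. Adipoq, the adiponectin gene, rose by 0.40 and 1.42 (limma adjusted p = 0.0208 and 3.45e-05). Rfc4, a replication factor C subunit, fell by 0.26 and 0.67 (adjusted p = 0.0426 and 0.000272), and St6gal1, a sialyltransferase, by 0.60 and 0.76 (adjusted p = 0.00836 and 0.000688). Dnajb11, an endoplasmic reticulum chaperone, rose by 0.33 at 11 months (adjusted p = 0.0301). Eif4a2, next to Kng1, was at -0.17 and -0.07 and did not pass, though median centring turned its 11-month value to 0.32 (adjusted p = 0.0161). The 6-week call of Adipoq ended without 6-week arrays 2, 3 or 4 (adjusted p up to 0.0864), that of Rfc4 without any 6-week array or 11-month arrays 1 or 2 (up to 0.188) and under median centring (-0.06, adjusted p = 0.581), and the 11-month call of Dnajb11 without 11-month arrays 1, 2 or 3 (up to 0.132). Ahsg was at background in all 16 measurements.

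The 5 other genes whose ratios lay nearest to the kininogens were Me3, Kcp, LOC676300, Cpn2 and Coq8a. Likeness was measured by the root-mean-square difference from the mean of Kng1 and Kng2 over the 8 dye-adjusted log2 ratios, among 21644 other genes with a value on every array. It was 0.71 for Me3, which encodes a mitochondrial malic enzyme, and 1.05, 1.08, 1.09 and 1.16 for the others in that order. Me3 had ratios of -1.68, -1.03, -1.43 and -1.86 on 6-week arrays 1 to 4 and -3.57, -3.28, -5.18 and -2.29 on 11-month arrays 1 to 4. It shared with the kininogens the lowest value on 11-month array 3 and the highest 11-month value on array 4. Me3 was picked by these same ratios, so this likeness is no separate finding. Cpn2 and Coq8a had their 11-month extremes on the same 2 arrays. Kcp shared only the highest, on array 4, and LOC676300 only the lowest, on array 3. Kcp, kielin/chordin-like protein, was lower at 6 weeks, with a fitted -2.31, and less low at 11 months, with -3.46. Nothing about shared control follows from this order.

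**Figure D5:**
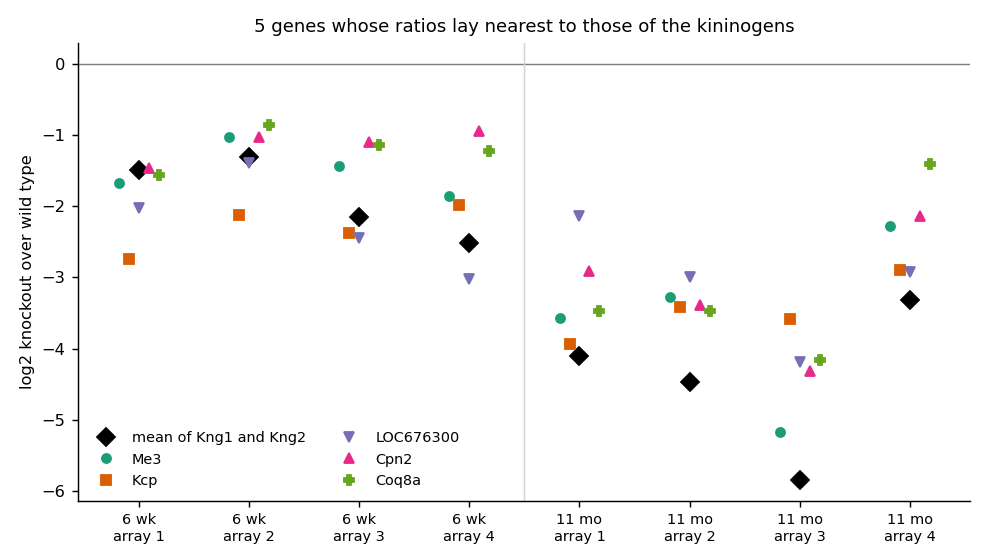
Log2 knockout over wild type (y axis) on each of the 8 arrays (x axis) for the mean of Kng1 and Kng2 (black diamonds) and for the 5 genes nearest to it by root-mean-square difference. Me3 lies at -5.18 on 11-month array 3, where the kininogen probes were at -5.76 and -5.93.

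Marker genes of cell types moved beside the kininogens, in a fit where 8.1% of all genes were higher and 6.04% lower at 6 weeks, and 21% and 19.6% at 11 months. Of 12 brown adipocyte genes, 2 fell at 6 weeks (Pank1 by 1.08 and Kcnk3 by 0.46; limma adjusted p = 0.0432 and 0.0257, both lost without 6-week array 1, 3 or 4 and under median centring, and that of Pank1 also without 6-week array 2 or 11-month array 1 or 2) and 9 fell at 11 months, with medians of -0.33 and -2.30. The medians on single 11-month arrays ran from -2.92 on array 3 to -1.85 on array 2. Of 9 general adipocyte genes 5 rose at 6 weeks and 7 at 11 months, led by Cfd, the adipsin gene, at 1.40 and 4.47 (adjusted p = 0.0166 and 3.97e-05; the first lost without 6-week array 1, 2 or 3 and without the dye term). Fibroblast genes rose in 5 of 8 and macrophage genes in 7 of 10 at 11 months, against 0 and 1 at 6 weeks. Their 11-month medians were highest on array 3, at 2.46 and 1.54. None of 10 skeletal muscle genes passed at either age, but their medians ran from -3.45 to 3.12 over the 6-week arrays and from -1.13 to 1.72 over the 11-month arrays. Endothelial genes had medians of -0.11 and 0.13, with 2 of 12 lower at 6 weeks and 3 of 12 higher at 11 months, and of 8 smooth muscle and pericyte genes 1 fell at 6 weeks and 4 rose at 11 months. Counts at 2 ages do not test a difference between them. In the limma test of the difference 8 of 12 brown adipocyte genes were lower, against 11.2% of all genes. Higher were 4 of 9 general adipocyte, 2 of 8 fibroblast and 1 of 10 macrophage genes, against 9.76% of all genes. Of the endothelial genes 1 of 12 was higher, and of the smooth muscle and pericyte genes 1 of 8. The part of these cell types in the fall of the kininogens was not tested.

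Since the liver is the main source of kininogens, hepatocyte genes were read on the same arrays. Of 18, 8 passed the filter. Ttr, Apoa1, Apoh, Fgb, F2, Ambp and Ahsg were well above background in 0 of 16 channel measurements, Fgg and Plg in 2 and Alb, the albumin gene, in 3. Of the 8 tested, Itih1 fell by 0.24 at 6 weeks and by 0.41 at 11 months (limma adjusted p = 0.0421 and 0.00169) and Tat by 0.16 at 11 months (adjusted p = 0.0413). That is 12.5% against 14.1% of all genes at 6 weeks, and 25% against 40.5% at 11 months. Ratios of the 8 ran from -0.28 to 0.80 at 6 weeks and from -0.43 to 0.003 at 11 months. In the difference between ages 1 of the 8 was lower, or 12.5% against 20.9% of all genes. The 6-week call of Itih1 ended without any 6-week array or 11-month arrays 1 or 2 (adjusted p up to 0.181), and that of Tat without any single array other than 6-week array 2 (up to 0.148), with 0.05 under median centring. The wild-type signal of the Kng1 probe for transcript variant 2 on these arrays was 11971 units or more. The part of liver RNA in the kininogen signals was not tested.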

How the data were processed

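Per the file headers, each deposited scanner file lists, for every spot, the mean intensity in both channels, the median intensity around the spot and a log10 ratio of Cy5 over Cy3 (Agilent Feature Extraction 10.5.1.1 at 6 weeks, 10.10.1.1 at 11 months; build mm9). The authors' deposited values, log2 ratios for 43173 entries per array, served as an alternative: the submitters' processing notes name limma, without its steps. Turned by the dyes, they correlated with the loess ratios at 0.954 to 0.983, as knockout over wild type.

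Background was corrected by normexp (offset 50) and ratios by loess in limma 3.58.1 (R 4.3.3). On 11-month array 3, local backgrounds of up to 48914 at spots marked uneven, against 103 elsewhere, distorted normexp, so such spots took the array's median background; keeping them was an alternative added after seeing the data. Spots marked non-uniform or outlying (131 to 247 per array) were left out; 61.2% to 68.2% of spots per channel were well above background. Probes needed 4 of 16 channel measurements well above background and 3 arrays per age, and a gene's brightest probe stood for it. Of the genes tested, 14808 were named through RefSeq accessions and 6933 keep the array's name. The model had a coefficient per age and a shared dye coefficient (5 residual degrees of freedom), with Benjamini-Hochberg adjustment over all genes and calls at 0.05; standard errors and intervals are limma's. Simulated data, with changes larger than many called here and noise independent between arrays, were recovered. That checks the code and not the noise of these arrays. Channel levels were scaled between arrays by Aquantile.

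The genes and lists were chosen with earlier results of these data known. Named were the 6 genes and Prdm16, every called gene of the kinin, angiotensin, cystatin and neighbour lists, leading genes of the adipocyte and hepatocyte lists, and the 5 genes most alike; 1 gene of the lists is counted but not reported here. Replicate numbers did not pair the samples. Alternatives covered normalization, background, filters, probes, dye terms, a replicate block and leaving out each array.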

Additional observations from a re-analysis of the deposited data

Results flagged for a closer look

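The knockout effect differed between the ages, by the limma test of the difference itself, in 15 of the genes named above. Of all genes, 20.9% passed the same test. Many of the named genes were named because they were called at either age, so no enrichment is read from the 15. Lower at 11 months were Ucp1 (-4.28), Cpn2 (-2.05), Pank1 (-1.92), Itpr1 (-1.19), Kcnk3 (-0.974), C1qbp (-0.659) and Rfc4 (-0.41). Higher were Cfd (3.07), Gnai1 (1.19), Adipoq (1.02), Gnai2 (0.848), Nos3 (0.796), Prcp (0.676), Cpd (0.509) and Plcb3 (0.306). Of these, Ucp1, Kcnk3, Cfd, Gnai2, Itpr1, Nos3 and Adipoq passed with every single array left out, and each of the others lost its call without at least 1 array. The kininogens and the genes picked for their likeness to them were not tested here, Cpn2 excepted, which is also on the list of kinin-degrading peptidases. Age and batch cannot be told apart in any of them.

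In 5 groups of 4 arrays a single array lay far from the others, with its gap to the nearest as a share of the group's range in brackets. Ucp1 was at -6.61 on 11-month array 3 (0.888) and Klkb1 at -0.769 on the same array (0.835). Cpd was at 0.579 on 1 of the 6-week arrays (0.901), Cstb at 0.0207 on 1 of the 11-month arrays (0.83) and Rfc4 at -0.473 on 1 of the 11-month arrays (0.879). Many named genes were searched at both ages, and chance marks about 1 in 20 such groups. The 5 marks are therefore not shown to be more than chance gives.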

How the results depend on the processing

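The ratios of Kng1 and Kng2 were below 0 at both ages under all 22 alternatives. Both genes were chosen for being low at both ages, so this is no support for their fall. Several alternatives, such as the filters, the dye terms and the replicate block, left their mean ratios as they were. The 11-month mean of Kng2 was -5.84, and its age difference -3.83, with the scanner software's ratio, and that of Kng1 was -1.25 at 6 weeks and -2.59 at 11 months with the mean of its probes, which takes in the dim one. Leaving out each array in turn, Kng1 ran from -1.98 to -1.59 and from -4.62 to -3.59, Kng2 from -2.07 to -1.76 and from -5.01 to -4.03, and the age differences from -2.82 to -1.78 and from -3.07 to -2.09. The counts of kinin genes ran from 3 to 12 at 6 weeks and from 3 to 11 in the difference, and those of all genes from 935 to 3878 and from 2353 to 4371. Under median centring 15 kinin genes differed between ages, and at 11 months Ace stood at 0.186, Plcb3 at 0.127, Cstb at 0.178, Tat at 0.0503 and Eif4a2 at 0.317; the age difference of Rfc4 was -0.23 (adjusted p = 0.128). Without Aquantile the 6-week wild-type level of Kng1 was 14.23 and that of Klkb1 6.72. With the replicate number as a replicate block the kinin counts were 11, 21 and 9, the age differences of C1qbp, Cpd and Plcb3 were not called (adjusted p = 0.05, 0.0677 and 0.0594), and Prdm16 passed at 6 weeks (0.0123); same-numbered arrays had correlated deviations of 0.28 to 0.48 with a shared dye term removed, which the opposite dye layout of the ages brings with it, and of 0.02 to 0.09 with a dye term per age, so the numbers were not read as pairs. With uneven backgrounds kept, Kng2 stood at -3.93 at 11 months. The difference between ages could not be fitted with each age alone. Dim probes, among them both kinin receptors, allow no statement below the scanner's limit.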
